A study of Mus musculus with 7 samples.

Results

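The 10 genes described here mark mural cells, the pericytes and smooth muscle cells that wrap blood vessels: Acta2, Tagln, Myl9, Cnn1, Tpm2, Cspg4, Mcam, Rgs5, Abcc9 and Kcnj8. They were taken by symbol from the deposited gene counts, and all 10 were found among 53801 gene IDs, of which 53620 matched a GENCODE M21 symbol. The counts come from bone marrow mesenchymal stromal cells of male C57BL/6 mice, 8 weeks old when treatment began. The mice received 500 µg/kg of an inhibitor of fibroblast activation protein (the FAPi group, 4 libraries) or the vehicle DPBS (3 libraries). Both were given as 100 µl by daily intraperitoneal injection for 35 days. The compound is not named in the sources used here. Per the labels, 7000 live cells per library were sorted from limb bones for Pdgfra and against CD45, Ter119 and Tie2. The sort used no mural marker, so these genes were measured in whatever Pdgfra-positive and carried-over cells the gate let through.

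Mural cells contract by sliding actin filaments against myosin. Acta2 encodes the smooth muscle actin of those filaments, Tpm2 a tropomyosin that lies along them, Myl9 a regulatory light chain of the myosin motor, and Cnn1 and Tagln the actin-binding proteins calponin 1 and transgelin. Cspg4 (the NG2 proteoglycan) and Mcam (CD146) are surface proteins by which pericytes are recognised. Rgs5 dampens G protein signals, and Abcc9 and Kcnj8 encode the regulatory and pore subunits of an ATP-sensitive potassium channel of vascular muscle. None of these genes is exclusive to mural cells. In bone marrow, pericyte genes are also found in reticular stromal cells that sit on sinusoids, and contractile genes in some bone-forming progenitors.

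The 10 genes were present at very unequal levels, and no tested member differed between treatments beyond the spread of the mice. Myl9 was abundant in every library, and Rgs5 and Abcc9 were at 23.0 CPM or more in each. Acta2, Tpm2, Kcnj8 and Cspg4 had lower mean CPM, which does not allow for gene length. Per kb of exon, Tpm2 and Acta2 were at percentiles 56.1 and 53.1 of the tested genes, and Abcc9 at 41.7. Mcam was near the detection floor. Cnn1 had no count in any of the 7 libraries and Tagln had 4 counts in all. Of the 10 members, 8 passed the filter on low counts and were tested with edgeR's quasi-likelihood test over 12930 genes. After Benjamini-Hochberg adjustment 0 of the 8 passed the threshold of 0.05, against a background of 0% of all tested genes. At an unadjusted p under 0.05 there were also 0 of 8, against 8.14% of all tested genes. DESeq2 called 0 members and gave no adjusted p for Cspg4 and Mcam, against calls at 1.1% of the genes to which it gave an adjusted p. The FAPi and DPBS values overlapped at all 8, where the groups were separate at 7.34% of tested genes. The estimate was higher in FAPi mice for 4 members and lower for 4, with a median log2 difference of 0.035 against 0.0081 over all tested genes. In bulk libraries of sorted cells, fewer mural cells and less RNA per cell cannot be told apart.

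**Figure D1:**
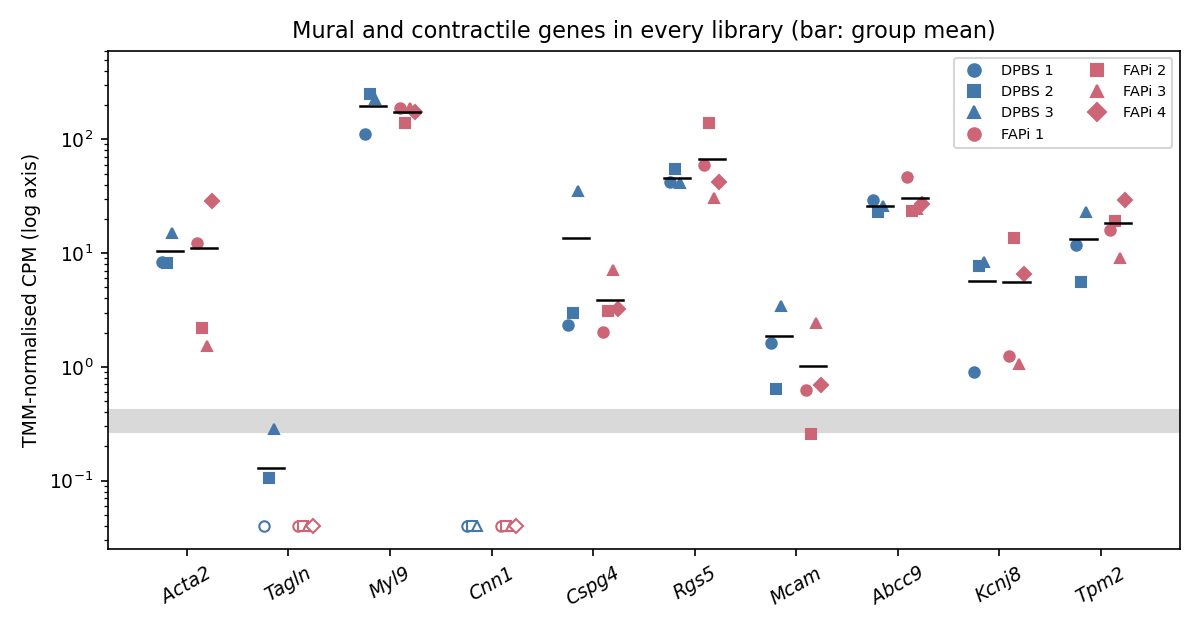
TMM-normalised CPM (log axis) of the 10 genes, with 1 point per library, DPBS in blue and FAPi in red, and a bar at each group mean. Open symbols at the bottom are libraries with no count, and the grey band is the level of 3 counts, 0.269 to 0.419 CPM. The groups overlap for every gene with counts in both.

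The libraries held 7492570 to 10569690 gene counts, and p-values measure the spread between mice as sampled by them. Levels are counts scaled to the library total (CPM) after TMM adjustment, with factors of 0.841 to 1.19, so that 3 counts, the floor used here, are worth 0.269 to 0.419 CPM. Spearman correlations between libraries ran from 0.795 to 0.855 across genes. Stromal identity was plain: Cxcl12, the chemokine of reticular stroma, was at 15945 to 21281 CPM and the leptin receptor gene Lepr at 1354 to 1904 CPM. Pdgfra, the positive marker of the sort, ranged from 317 to 365 CPM in DPBS mice and, without overlap, from 383 to 439.9 CPM in FAPi mice. The groups were separate in this way at 7.34% of all tested genes, and the log2 difference of Pdgfra, 0.22, missed the edgeR threshold (adjusted p = 0.836). Ptprc, which encodes CD45, was at 0.269 to 5.28 CPM and Tek, which encodes Tie2, at 0 to 1.60 CPM.

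Acta2 (ENSMUSG00000035783.9) lies on the minus strand of chromosome 19, from 34241090 to 34255590 in mm10. It had 93, 77 and 160 counts in DPBS replicates 1 to 3, or 8.33, 8.13 and 15.1 CPM. In FAPi replicates 1 to 4 it had 97, 17, 13 and 206 counts, or 12.2, 2.20, 1.51 and 28.8 CPM. The FAPi mice held both the lowest and the highest values of the series, a 19.0-fold range, with the DPBS mice between them. Acta2 averaged 10.5 ± 3.95 CPM with DPBS (SD, n = 3) against 11.2 ± 12.7 CPM with FAPi (SD, n = 4). The edgeR estimate of 0.084 ± 0.93 (log2, SE) had a 95% interval of -1.97 to 2.14 (adjusted p = 0.995). Its sign turned when library totals replaced TMM, with limma, with voom, and without FAPi replicate 4 (-0.99), DPBS replicate 1 (-0.065) or DPBS replicate 2 (-0.074). It was 0.42 to 0.45 without any one of DPBS replicate 3, FAPi replicate 2 and FAPi replicate 3.

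Tpm2 (ENSMUSG00000028464.16, chromosome 4, 43514711 to 43523765, minus strand) was at 11.7, 5.60 and 22.9 CPM in the DPBS mice and at 15.8, 19.3, 9.09 and 29.0 CPM in the FAPi mice. It was highest in FAPi replicate 4 and next in DPBS replicate 3, the same 2 libraries that led at Acta2. The edgeR estimate was 0.45 ± 0.61 (log2), with an interval of -0.91 to 1.80 (adjusted p = 0.908). It was 1.08 without DPBS replicate 3, but 0.075 without DPBS replicate 2 and 0.14 without FAPi replicate 4. Skeletal muscle also makes Tpm2 and could reach a preparation of limb bones. Its myosin genes Myh1, Myh2 and Myh4 had no count in any library, and its actin gene Acta1 had at most 2.21 CPM, in FAPi replicate 3, where Tpm2 was second lowest. Other skeletal muscle genes were present. Mylpf, a fast muscle light chain, was at 3.75 to 56.0 CPM, highest in DPBS replicate 2, where Tpm2 was lowest. In FAPi replicate 1 the calcium pump gene Atp2a1 was at 26.9 CPM and the actinin gene Actn3 at 15.7 CPM, and Tpm2 was at 15.8 CPM. The part of skeletal muscle in the Tpm2 values was not tested.

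Myl9 (ENSMUSG00000067818.6, chromosome 2, 156775420 to 156781658, plus strand) was the most abundant member. Its levels were 112, 253 and 227 CPM in the DPBS mice, and the FAPi mice had 187, 138, 190.1 and 173 CPM. All 4 FAPi values lay inside the DPBS range, between DPBS replicate 1 below and DPBS replicates 2 and 3 above. Myl9 averaged 197 ± 74.9 CPM with DPBS (SD, n = 3) and 172 ± 23.6 CPM with FAPi (SD, n = 4). The log2 difference was -0.20 ± 0.31 with an interval of -0.88 to 0.49 (edgeR adjusted p = 0.922), the narrowest interval of the 8 tested members. The estimate was 0.017 without DPBS replicate 2, -0.49 without DPBS replicate 1 and -0.086 without DPBS replicate 3.

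Cnn1 (ENSMUSG00000001349.5, chromosome 9, 22099216 to 22109630, plus strand) had no count in any library. A count of 0 allows up to 0.269 to 0.419 CPM per library, for counting error alone. None of its exon bases is shared with another annotated gene, and none of its 75-base stretches recurs in a transcript of another gene. Tagln (ENSMUSG00000032085.5, chromosome 9, 45929619 to 45936058, minus strand) had 1 count in DPBS replicate 2, 3 in DPBS replicate 3 and 0 in the other 5 libraries, at or under the floor throughout. The count of Tagln is less certain than that of Cnn1. Only 32.1% of its exon bases are free of exons of other genes, since Pcsk7 and the antisense gene Gm48529 cover the rest on the other strand. In the same libraries Pcsk7 had 29 to 332 counts and Gm48529 1 to 27. No source used here gives the strand setting of the authors' counting, and the part of this overlap in the Tagln counts was not tested.

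Serum response factor drives much of the contractile program by binding the CArG box in promoters. The windows are shown because they hold the motif for Myl9, the most abundant contractile member, and near matches to it for Acta2, the actin that defines the program. RefSeq promoter windows on GRCm38.p6, from 250 bases before to 50 after a start, were found for 9 of the 10 members, without Tagln. A CArG box (6 of the 6 middle bases A or T, which reads alike on either strand) occurred in 1 of the 9 windows, that of Myl9. It occurs in 1.63% of all 32851 windows. A CArG-like match, with 5 of the 6 middle bases A or T, raised the members to 2 of 9, Myl9 and Acta2, against 9.98% of all windows. In the lines below the strand of the gene is written 5′ to 3′, and capitals mark the match.
Myl9 CArG box, chr2:156775273-156775342, plus strand: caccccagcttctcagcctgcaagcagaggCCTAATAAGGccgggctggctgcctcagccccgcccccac
Myl9 CArG-like, chr2:156775335-156775404, plus strand: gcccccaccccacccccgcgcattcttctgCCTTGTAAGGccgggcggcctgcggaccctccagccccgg
Acta2 CArG-like, chr19:34255438-34255467, minus strand: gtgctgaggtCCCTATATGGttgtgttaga
Acta2 CArG-like, chr19:34255388-34255417, minus strand: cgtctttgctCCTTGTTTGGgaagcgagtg
The first bases of the matches stand 161 and 99 bases before the RefSeq start of Myl9, and 84 and 34 bases before that of Acta2. A longer GENCODE transcript of Acta2 begins upstream and covers both of its matches. The windows of Cnn1, Tpm2 and the 5 pericyte members hold no such letters. A match describes the letters and is not a measured site. Srf itself averaged 26.0 ± 17.5 CPM with DPBS (SD, n = 3) and 15.7 ± 4.62 CPM with FAPi (SD, n = 4), an edgeR log2 difference of -0.73 (adjusted p = 0.799). Myocd, which encodes the muscle coactivator of Srf, had no count in any library.

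Rgs5 (ENSMUSG00000026678.10, chromosome 1, 169655501 to 169695813, plus strand) was the most abundant of the pericyte members. It was at 41.7, 55.0 and 41.3 CPM in the DPBS mice and at 59.4, 138, 30.5 and 42.4 CPM in the FAPi mice. FAPi replicate 2 stood above the rest, and the other 6 libraries lay between 30.5 and 59.4 CPM. The log2 difference of 0.55 ± 0.50, interval -0.55 to 1.66 (edgeR adjusted p = 0.825), was -0.076 without FAPi replicate 2. In that library Actb was also at its highest, 140716 CPM, against 33646 to 84555 CPM in the others, and its part in the Rgs5 value was not tested.

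Abcc9 and Kcnj8 are neighbours on the minus strand of chromosome 6 with 16247 bases between them. Abcc9 (ENSMUSG00000030249.15, 142587862 to 142702315) was among the steadiest members at 29.1, 23.0 and 25.7 CPM in the DPBS mice and 46.7, 23.4, 24.3 and 27.2 CPM in the FAPi mice. Apart from FAPi replicate 1, every library lay between 23.0 and 29.1 CPM. The log2 difference was 0.23 ± 0.42, interval -0.69 to 1.14 (edgeR adjusted p = 0.936), and -0.056 without FAPi replicate 1. Kcnj8 (ENSMUSG00000030247.9, 142564837 to 142571614) did not follow it. Its counts were 10, 73 and 89 in DPBS and 10, 105, 9 and 47 in FAPi mice, or 0.896, 7.71 and 8.39 CPM and 1.26, 13.6, 1.05 and 6.56 CPM. The libraries fell into 3 near 1 CPM and 4 between 6.56 and 13.6 CPM, and each treatment had libraries of either kind. The log2 difference of -0.015 ± 1.09 had the widest interval of the tested members, -2.43 to 2.40 (edgeR adjusted p = 0.998). Leaving out 1 library moved it between -0.94 (without FAPi replicate 2) and 0.38 (without DPBS replicate 3). Per kb of exon, Abcc9 was 0.525 to 1.26 times as high as Kcnj8 in the 4 libraries with more Kcnj8, and 7.07 to 11.3 times as high in the other 3. The 2 subunit transcripts were near parity in some libraries and far apart in others, where Kcnj8 had only 9 or 10 counts. Whether the sampling of few molecules spans this difference was not tested.

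Cspg4 (ENSMUSG00000032911.6, chromosome 9, 56865033 to 56899870, plus strand) was at 2.33, 2.96 and 35.2 CPM in the DPBS mice and at 2.01, 3.10, 7.11 and 3.21 CPM in the FAPi mice. One library, DPBS replicate 3 with 373 counts, stood far above the other 6. Its log2 difference was the largest of the members at -1.80 ± 0.99, interval -3.98 to 0.38, and missed the edgeR threshold (unadjusted p = 0.0968, adjusted p = 0.686). Without DPBS replicate 3 the estimate was 0.54. Mcam (ENSMUSG00000032135.15, chromosome 9, 44134469 to 44142727, plus strand) had 18, 6 and 36 counts in DPBS and 5, 2, 21 and 5 in FAPi mice. These are 1.61, 0.634 and 3.39 CPM and 0.628, 0.258, 2.45 and 0.698 CPM, and 1 library was under the floor. Its highest value was in DPBS replicate 3, as for Cspg4, and its second highest in FAPi replicate 3. The log2 difference was -0.89 ± 1.05, interval -3.20 to 1.43 (edgeR adjusted p = 0.884), and -0.15 without DPBS replicate 3. In DPBS replicate 3 the endothelial gene Flt1 was at 72.9 CPM, against 1.06 to 3.23 CPM in the other 6 libraries. The 4 most abundant of the 17 listed endothelial markers were divided. Stab1 (93.4 CPM) and Plvap (22.3 CPM) were highest in DPBS replicate 3, Kdr in FAPi replicate 1 (340.3 CPM) and Egfl7 in FAPi replicate 4 (35.6 CPM). Flt1 was chosen after its values were seen, and its part in the Cspg4 and Mcam values was not tested.

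**Figure D2:**
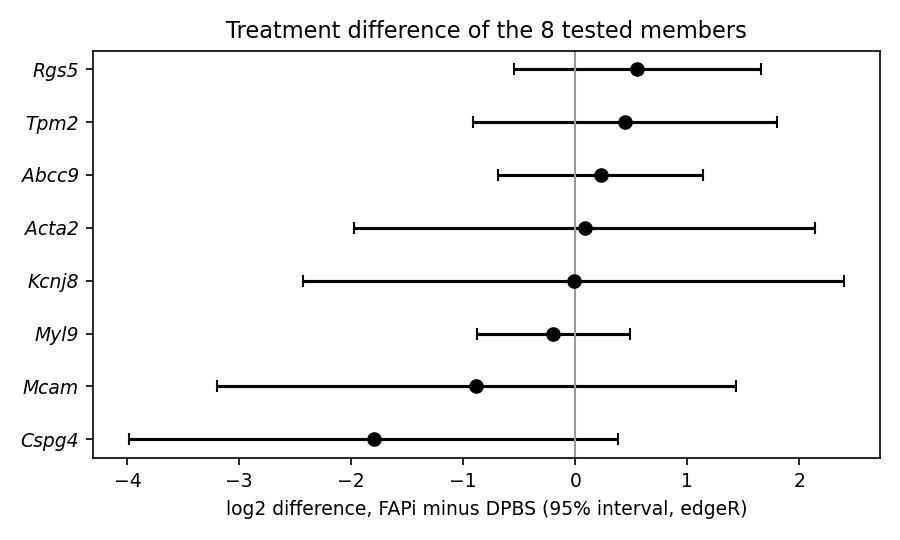
Log2 difference between FAPi and DPBS mice for the 8 tested members (points, edgeR) with 95% intervals (bars). All 8 intervals cross 0, from the narrow one of Myl9 (-0.88 to 0.49) to the wide one of Kcnj8 (-2.43 to 2.40).

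Compared per kb of merged exons, the members spanned a wide range. Myl9 averaged 157 ± 41.5 CPM per kb (SD, n = 7 libraries), higher than 98.0% of 12919 tested genes with a length. Rgs5 followed at 12.8 ± 8.00 CPM per kb. Their ranges over the libraries did not overlap, at 96.4 to 217 and 6.71 to 30.3 CPM per kb. Tpm2 was at 5.57 ± 2.81, Acta2 at 4.96 ± 4.22, Abcc9 at 3.40 ± 0.992 and Kcnj8 at 2.21 ± 1.88 CPM per kb. Each overlapped its neighbour in this order, and Tpm2 exceeded Acta2 in 4 of 7 libraries, as did Acta2 Abcc9 and Abcc9 Kcnj8, so their order is not resolved. Cspg4 at 0.669 ± 1.01 and Mcam at 0.412 ± 0.347 CPM per kb were at percentiles 7.11 and 3.00 of the tested genes. Below Rgs5, the ranges of every pair of neighbours overlapped, although Rgs5 exceeded Tpm2 and Kcnj8 exceeded Cspg4 in 6 of 7 libraries and Mcam exceeded Tagln in all 7. Tagln was at 0.0279 CPM per kb and Cnn1 at 0.

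**Figure D3:**
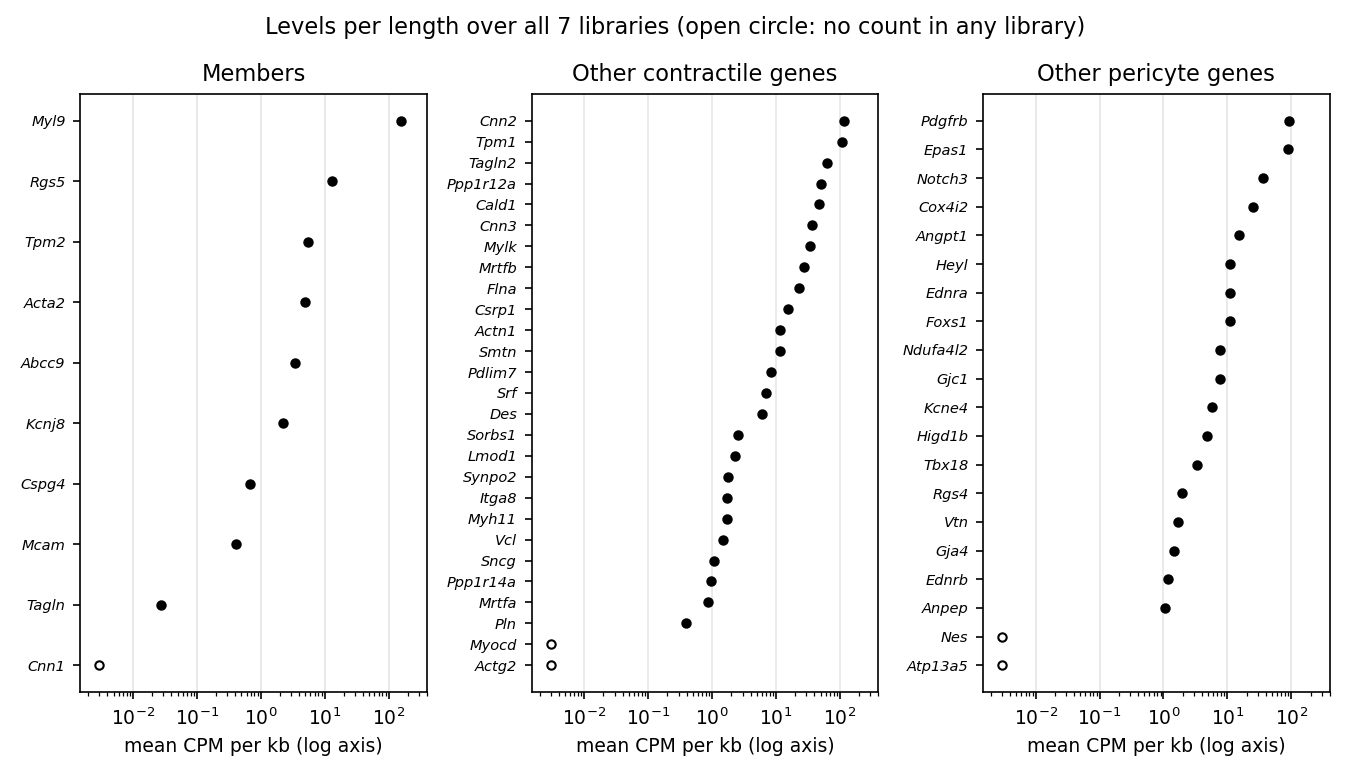
Mean level over all 7 libraries in CPM per kb of merged exons (log axis) for the members, 27 other contractile genes and 20 other pericyte genes. Open circles are genes with no count in any library. Myl9 (157), Cnn2 (116), Tpm1 (106) and Pdgfrb (93.7) are among the high genes, in an order that depends on the length used (Tpm1 is at 238 and Myl9 at 162 per kb of the longest transcript), and Cnn1, Myocd, Actg2, Nes and Atp13a5 are at 0.

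Of 27 other contractile genes listed, 22 were tested, 11 had a higher and 11 a lower estimate in FAPi mice, and 0 passed the edgeR threshold in either direction. Their median log2 difference was -0.011, against 0.0081 over all tested genes. The most abundant by CPM were Tpm1, Cald1, Ppp1r12a and Mylk, which encode a tropomyosin, caldesmon, the targeting subunit of myosin phosphatase and the kinase that activates myosin light chains. Tpm1 averaged 685 ± 119 CPM with DPBS and 691 ± 81.7 CPM with FAPi, Cald1 604 ± 94.8 and 546 ± 74.0 CPM, and Mylk 354 ± 109 and 398 ± 72.9 CPM. The groups overlapped at all 3, with log2 differences of 0.012 ± 0.22, -0.15 ± 0.22 and 0.17 ± 0.28. Ppp1r12a was at 166, 343 and 291 CPM with DPBS and at 409.9, 734, 385 and 508 CPM with FAPi. Its groups were separate, and its log2 difference of 0.93 ± 0.32 missed the edgeR threshold (adjusted p = 0.509). Lmod1, which encodes a smooth muscle protein that seeds actin filaments, was the other gene of the list with an unadjusted p under 0.05 and separate groups, and is named after its values were seen. It was at 12.1, 11.6 and 23.5 CPM with DPBS and at 3.01, 6.20, 5.94 and 1.54 CPM with FAPi (edgeR log2 difference -1.91 ± 0.69, adjusted p = 0.518). These 2 of 22 tested genes are near the background, 8.14% of all tested genes with such a p and 7.34% with separate groups. Tpm1, Cald1, Ppp1r12a and Mylk also serve the cytoskeleton of cells that are not muscle.

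In the calponin and transgelin families the smooth muscle gene was far scarcer than its widely expressed relatives. The following relatives of Cnn1, Tagln and Myl9 were singled out after their values were seen. Cnn2 and Cnn3, calponins of many cell types, were at 116 and 37.1 CPM per kb, where Cnn1 was at 0. Tagln2 was at 63.8 CPM per kb, against 0.0279 for Tagln. That value of Tagln is less certain, since only 32.1% of its exon bases are free of exons of other genes. Myh11, the smooth muscle myosin heavy chain, was at 1.71 CPM per kb, and ranged from 2.43 to 34.2 CPM with DPBS and from 1.40 to 31.7 CPM with FAPi. Myl9 was at 157 CPM per kb of merged exons, against 114 for Myl12a and 43.5 for Myl12b. Per kb of the longest transcript, a setting added after seeing the data for genes other than the members, the order of Myl9 and Myl12a turned, at 162 against 197, and Myl12b was at 56.2. Myl12a and Myl12b are the light chains of non-muscle myosin, which share 18.5% and 15.9% of their 75-base stretches with each other or other genes.

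Isoform shares within a library do not depend on the scaling between libraries, and 3 were compared with two-sided exact permutation tests. The smallest p that 3 against 4 libraries allow is 0.0286. Acta2 made up 0.0221 ± 0.00537% of the counts of 6 actin genes in DPBS (SD, n = 3) and 0.0148 ± 0.0158% in FAPi mice (SD, n = 4). The exact permutation p was 0.457, and 0.743 after Benjamini-Hochberg adjustment over the 3 shares. The lowest share was 0.00156% in FAPi replicate 2 (95% Wilson interval 9.75e-04 to 0.00250) and the highest 0.0340% in FAPi replicate 4 (0.0297 to 0.0390). Nearly all actin counts were Actb, so the Acta2 share moves with Actb as well as with Acta2. Actb averaged 47913 ± 12953 CPM with DPBS (SD, n = 3) and 88749 ± 36525 CPM with FAPi (SD, n = 4). Its edgeR log2 difference was 0.89 ± 0.31 (adjusted p = 0.509), and the groups overlapped. Actg1, at 10.5 to 22.6 CPM, shares 33.5% of its 75-base stretches with pseudogenes or other genes, so its counts may be incomplete. Tpm2 made up 0.899 ± 0.423% of tropomyosin counts in DPBS and 1.13 ± 0.510% in FAPi mice (exact permutation p = 0.571, adjusted 0.743). Myl9 made up 27.3 ± 7.14% of regulatory light chain counts in DPBS and 25.6 ± 2.12% in FAPi mice (exact permutation p = 0.743, adjusted 0.743). The Myl9 shares were 19.2, 30.5 and 32.3% in DPBS and 27.1, 23.8, 27.8 and 23.8% in FAPi mice. The FAPi values again lay within those of DPBS, and the sign of this difference turned without DPBS replicate 3.

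**Figure D4:**
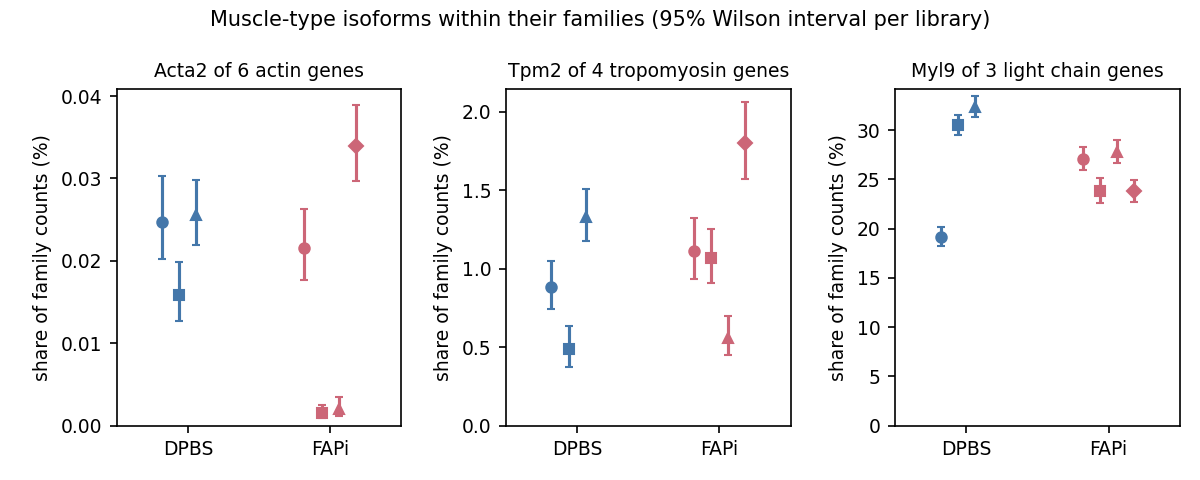
Share of Acta2 among 6 actin genes, of Tpm2 among 4 tropomyosin genes and of Myl9 among 3 regulatory light chain genes, in % of the counts of the family, with 1 point per library (DPBS blue, FAPi red) and 95% Wilson intervals. Circle, square, triangle and diamond are replicates 1 to 4. FAPi replicates 2 and 3 are lowest for Acta2, at 0.00156 and 0.00206%, and the groups overlap in each panel.

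Of 20 other pericyte genes, 17 were tested, 10 had a higher and 7 a lower estimate, and 0 passed the edgeR threshold in either direction. Their median log2 difference was 0.072, against 0.0081 over all tested genes. Pdgfrb, the receptor through which pericytes are recruited to vessels, averaged 499 ± 73.7 CPM with DPBS (SD, n = 3) and 524 ± 39.9 CPM with FAPi (SD, n = 4). Epas1, the hypoxia-inducible factor 2 alpha gene, was at 498 ± 94.0 and 482 ± 116 CPM, and Notch3, a mural Notch receptor, at 287 ± 35.9 and 296 ± 72.1 CPM. Angpt1, a ligand of the endothelial receptor Tie2, was at 76.9 ± 19.9 and 81.1 ± 12.8 CPM. The groups overlapped at these 4. Anpep and Ednrb, named after their values were seen, were the 2 of 17 with an unadjusted p under 0.05, against 8.14% of all tested genes. Anpep, an aminopeptidase, was at 2.06, 0.951 and 1.23 CPM with DPBS and, without overlap, at 6.90, 3.10, 9.32 and 6.84 CPM with FAPi (edgeR log2 difference 2.20 ± 0.89, adjusted p = 0.563), the 1 of 17 with separate groups against 7.34% of all tested genes. Ednrb, an endothelin receptor, was at 26.2 CPM in DPBS replicate 1 and at 0.845 to 3.11 CPM in the other 6 libraries, and its groups overlapped (edgeR log2 difference -2.90 ± 1.11, adjusted p = 0.545). Per length, Pdgfrb at 93.7, Epas1 at 87.4, Notch3 at 36.2, Cox4i2 at 25.5 and Angpt1 at 15.2 CPM per kb stood, on average, above every member but Myl9. Nes, a gene used to mark perivascular stromal cells, and Atp13a5, a pericyte gene of the brain, had no count in any library.

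The members varied differently from mouse to mouse. The SD of log2 CPM within groups was 1.53 for Acta2 and 1.68 for Kcnj8, larger than for 87.0% and 86.5% of the 1293 tested genes in the same 1 of 10 abundance groups. It was 0.37 for Abcc9, larger than for 13.8% of such genes. For Myl9, Rgs5, Tpm2, Cspg4 and Mcam it was 0.43, 0.74, 0.82, 1.44 and 1.03, between the 27.5th and 72.7th percentile of their abundance groups. Nor did they move as a block. Over the 7 libraries the group-centred log2 CPM of the 28 pairs of tested members had correlations from -0.79 (Rgs5 with Mcam) to 0.71 (Cspg4 with Mcam), with a median of 0.11 and 15 above 0. These are descriptions over libraries that share depth and scaling between genes. Highest values were spread over 5 libraries: DPBS replicate 3, FAPi replicate 2 and FAPi replicate 4 were each highest at 2 members, and DPBS replicate 2 and FAPi replicate 1 at 1.

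Among 9608 other genes with at least 5 CPM on average, the closest to Acta2 in group-centred log2 CPM were Ssr2, Nmnat1 and Trim62 (Pearson r of 0.997, 0.990 and 0.984 over 7 libraries). Those closest to Rgs5 were Runx3, Cpeb3 and Cd47 (0.984, 0.982 and 0.977). None of these 6 is a listed contractile, pericyte or cell type marker. They are the highest of 9608 correlations, each over only 7 libraries. How high the best of as many unrelated genes would reach was not tested. The values by library below follow from this choice and are no separate result. Nmnat1 had 41.7 CPM and Trim62 36.3 CPM in FAPi replicate 4, the library with the most Acta2. Runx3 had 94.0 CPM and Cpeb3 58.3 CPM in FAPi replicate 2, the library with the most Rgs5. Ssr2 ranged from 81.8 to 185 CPM and was lowest in FAPi replicates 2 and 3, as Acta2 was. Cd47 ranged from 396 to 623 CPM and was also highest in FAPi replicate 2.

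Markers of neighbouring cell types were measured beside the members. The 17 endothelial markers summed to 67.6, 70.9 and 313 CPM in the DPBS mice and 462, 196, 101 and 131 CPM in the FAPi mice, with none at 0 in all libraries. Kdr, the main endothelial receptor for VEGF, took 340.3 CPM of that sum in FAPi replicate 1. With Kdr included, the highest endothelial sums were in FAPi replicate 1 and DPBS replicate 3. FAPi replicate 1 was also highest at Abcc9, and DPBS replicate 3 at Cspg4 and Mcam. Stab1, Egfl7 and Plvap, the next most abundant of these markers, were at 68.7, 14.2 and 4.90 CPM in FAPi replicate 1. None of them was highest in that library, and Plvap was lowest there. The 14 skeletal muscle markers summed to 11.1 to 62.6 CPM with DPBS and 6.46 to 59.0 CPM with FAPi, with 5 at 0 in every library. The 9 Schwann cell markers summed to 235 to 361 and 214 to 395 CPM, nearly all of it Pmp22, while Sox10 and Cdh19 were at 0. The 10 chondrocyte markers summed to 77.0 to 118 and 94.0 to 206 CPM, with Matn1 and Matn3 at 0. The 10 osteoblast markers summed to 17175 to 28480 and 14880 to 26260 CPM. The 9 matched erythroid markers summed to 1662 to 15229 CPM with DPBS and 1542 to 3075 CPM with FAPi. All 9 had a lower estimate in FAPi mice, 5 of them with an unadjusted edgeR p under 0.05, against 8.14% of all tested genes. Separate groups were seen at 0 of the 9, against 7.34% of all tested genes, and 0 passed the edgeR threshold. The sums of the 11 neutrophil markers did not overlap, at 668 to 2853 CPM with DPBS against 198 to 643 CPM with FAPi. Taken singly, the groups were separate at 5 of the 11, against 7.34% of all tested genes. In FAPi mice 10 had a lower and 1 a higher estimate, and 0 passed the edgeR threshold. The sums of the 8 reticular markers, 74109 to 82097 against 85988 to 88135 CPM, did not overlap either. No background share was computed for such sums, and Igfbp5, at 49997 to 65251 CPM, made up most of each. Of the 8 markers 4 had a higher and 4 a lower estimate. Pdgfra was the 1 of 8 with separate groups, against 7.34% of all tested genes. The part of these cell types in the members' levels was not tested.

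**Figure D5:**
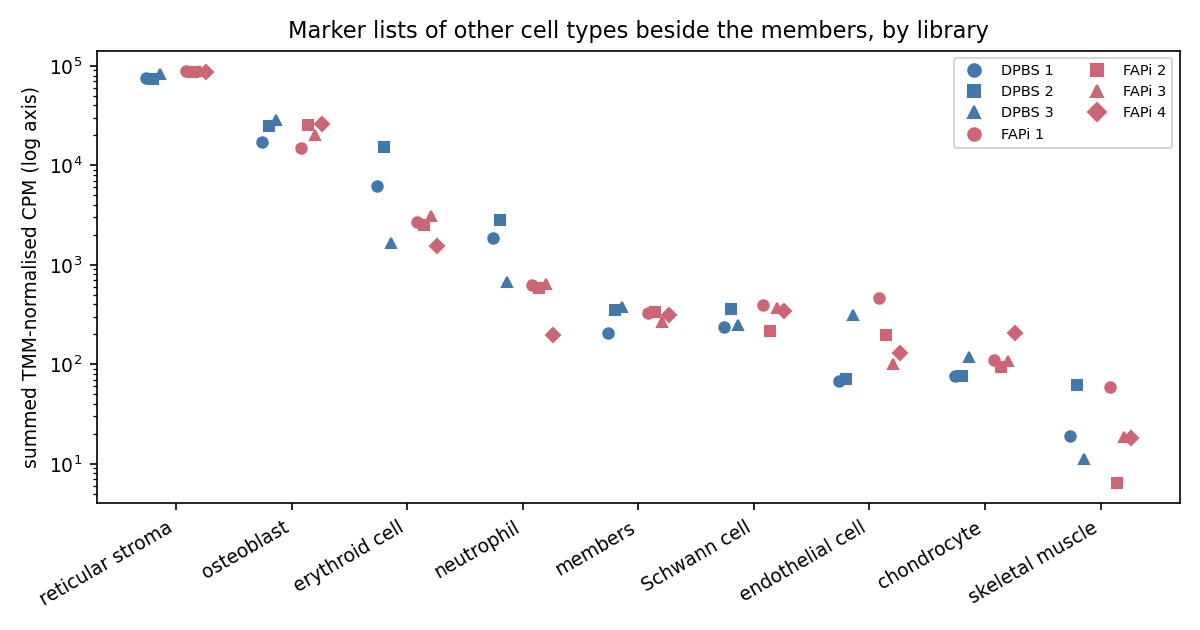
Summed TMM-normalised CPM (log axis) of 8 marker lists and of the 10 members, with 1 point per library (DPBS blue, FAPi red). The members sum to 208 to 379 CPM with DPBS and 266 to 338 CPM with FAPi, near the Schwann and endothelial lists and far under the reticular list at 74109 to 88135 CPM. The lists differ in length, and Pmp22 and Igfbp5 make up most of the Schwann and reticular sums. The sums therefore do not measure the amounts of these cell types.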

How the data were processed

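RNA of 7 sorted stromal cell libraries was sequenced as paired 150-base reads after a modified Smart-seq2 protocol, per the labels' protocols. For each library the authors deposited whole-number gene counts and CPM values. The submitters' processing notes list STAR, HTSeq and mm10. Their versions, the annotation and the strand setting are not given in the sources used. A tag in the count files' names may stand for duplicate removal. The deposited CPM are counts divided by the total of the library, and repeated lines at the end of 6 tables were dropped.

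The test was edgeR 4.0.16 (R 4.3.3): filterByExpr (minimum count of 10), TMM factors, robust glmQLFit and glmQLFTest, and Benjamini-Hochberg adjustment over 12930 genes. Log2 differences are FAPi minus DPBS, and SE is the absolute difference divided by the square root of F. DESeq2 1.42.0 and limma 3.58.1 served as alternatives. The fit was tested on simulated data. Levels per length use merged exons of GENCODE M21. Isoform shares were compared with exact permutation tests (scipy 1.17.1). Wilson intervals and the floor of 3 counts cover counting error only, since amplified reads are not independent molecules.

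The design gives 3 and 4 mice with 1 library per replicate, and no 2 libraries agreed within sampling noise. Members and lists were chosen with earlier results of these data known. All members were named, with the 4 most abundant genes of each list of other contractile or pericyte genes, all isoform and gate genes, and the 3 genes most like Acta2 and Rgs5. Names outside this rule are Ednrb, Cox4i2, Myocd, Myh11, Lmod1, Anpep, Srf and Flt1. Markers of other cell types, zero-count genes and the relatives singled out in the text are outside it too. All these were chosen after their values were seen.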

Additional observations from a re-analysis of the deposited data

Results flagged for a closer look

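In the FAPi group, 37 values were searched for 1 library standing apart from the other 3, measured as its distance to the next library over the group's range. For normally distributed values chance marks about 1 in 20, or 1.85 of 37 independent values, and 6 were marked, some of which share libraries. CPM values and their sums, some of them at 0, need not be so distributed. The count of 6 is therefore no test of an excess. The 3 DPBS libraries were too few for the check.

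Among the members, Abcc9 was marked, where FAPi replicate 1 held 46.7 CPM and the other 3 held 23.4 to 27.2 CPM (ratio 0.836). FAPi replicate 3 held 2.21 CPM of Acta1, the skeletal actin gene, which had no count in the other 3 FAPi libraries (ratio 1). The same library held 583 CPM of Pdgfrb, and the others 497 to 509.5 CPM (ratio 0.85). FAPi replicate 4 held 443 CPM of Myl12a, and the others 350.2 to 366 CPM (ratio 0.83). Its chondrocyte markers summed to 206 CPM, the others' to 94.0 to 111 CPM (ratio 0.849), and the neutrophil markers to 198 CPM in the same library, below 588 to 643 CPM (ratio 0.877).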

How the results depend on the processing

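No member and none of the other contractile or pericyte genes passed the threshold under any alternative run. Over all genes, the edgeR count of 0 (1053 at an unadjusted p under 0.05) became 135 with DESeq2, 6 with no low-count filter, 6 each for limma at pseudocounts of 1 and 0.1 (deposited CPM) and 1 with voom weights. Leaving out 1 library gave 0 to 3, with all 3 without DPBS replicate 3 (Gm47917, Mbnl3 and Stard8). The log2 difference of Acta2 turned from 0.084 to -0.040 with library totals, -0.71 and -0.93 with limma at pseudocounts of 1 and 0.1, and -0.97 with voom. That of Kcnj8 turned from -0.015 to 0.026 with DESeq2 and with RLE factors and 0.082 with voom. Leaving out 1 library gave -0.99 to 0.45 for Acta2, -0.94 to 0.38 for Kcnj8, -0.49 to 0.017 for Myl9, -2.31 to 0.54 for Cspg4, -0.076 to 0.81 for Rgs5 and -0.056 to 0.32 for Abcc9. The signs of Mcam and Tpm2 held wherever they were fitted. The Myl9 share differed by -1.71 percentage points, and by -5.79 to 0.794 without 1 library. With a stricter minimum count of 50, Cspg4 and Mcam were not fitted, and Mcam was not fitted without FAPi replicate 3. The cause of these turns was not tested.

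Replicate numbers did not pair the libraries, with correlations of -0.0084, -0.018 and -0.051 between same-numbered libraries' deviations from their group means. The replicate block gave 0 calls, and Acta2 was at -1.55 with it. The lowest counts of Mcam, Kcnj8 and Acta2 in a library were 2, 9 and 13. For Acta2 the Wilson intervals of the lowest and the highest share did not overlap. These intervals treat reads as independent, which amplified reads are not, and both shares were picked as extremes. Whether the sampling of few molecules spans the range of Acta2 was not tested.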
